A study of Mus musculus with 6 samples.

Results

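Mitochondrial DNA (mtDNA) is a small circular genome that is copied and transcribed by its own machinery, all of it encoded in the nucleus. Described here are 10 genes of that machinery, Polg, Polg2, Twnk, Ssbp1, Mgme1, Top1mt, Tfam, Polrmt, Tfb2m and Tefm, which were taken by name from 36137 genes to which the files assign transcripts. They were measured by RNA-seq of poly(A) RNA in bone marrow-derived macrophages (BMDMs), in 3 WT and 3 Drp1 KO libraries. All cells had been kept for 8 hours without serum at 2.1% oxygen, the hypoxia serum starvation (HSS) that stands for ischemia in a dish.

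Drp1 KO cells came from LysM-Cre+/- Drp1 fl/fl mice, in which Cre is driven by the lysozyme M promoter of myeloid cells. WT cells came from LysM-Cre+/- Drp1+/+ mice, so both groups carry the Cre and differ in the floxed Drp1 alleles. The mice were of both sexes and aged 8 to 12 weeks, and marrow of 2 mice per genotype was pooled before culture. The sample titles number the libraries of each group as biological replicates, but whether each came from a separate pool is not given. The p-values below therefore measure the spread between these libraries, part of which may be technical. No library kept in normal oxygen and serum was analysed here, so every value is a level under HSS.

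DRP1, the product of Dnm1l, is the GTPase that cuts mitochondria into smaller units, and mtDNA nucleoids are commonly found near the sites of that cutting. DNA polymerase gamma (Polg, with its accessory subunit Polg2), the helicase Twinkle (Twnk) and the single-stranded DNA-binding protein Ssbp1 form the core replisome. The RNA polymerase Polrmt makes both the long transcripts and the replication primers, with Tfam and Tfb2m at the promoter and Tefm as the elongation factor. In macrophages, newly made or released mtDNA is known as a ligand of innate immune sensors.

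The libraries held 23389488 to 32231206 estimated counts, and the library numbered 1 was the shallowest of each group. Dnm1l, summed over the whole gene, had 72.8, 69.9 and 75.1 CPM (counts scaled to library size) in WT and 58.8, 60.7 and 66.3 CPM in Drp1 KO libraries. The groups did not overlap, and the log2 fold change was -0.23 ± 0.0921 (SE, n = 3 per group; edgeR adjusted p = 0.248). A sum over the gene does not set reads of the floxed exons apart. All 8 macrophage markers were above the 3-count floor, and their summed level was 13410 to 14810 CPM in WT and 11990 to 14420 CPM in Drp1 KO libraries. The 8 neutrophil markers summed to 6.86 to 21.1 CPM in WT and 20.5 to 48.4 CPM in Drp1 KO libraries, with Ly6g and Elane at the floor. The 6 dendritic cell markers summed to 43.4 to 61.8 and 30.1 to 49.9 CPM, with Cd209a and Ccr7 at the floor. The 6 fibroblast markers (Lum at the floor) reached at most 3.06 CPM in a library. The part of other cells in the results below was not tested. In bulk RNA, fewer cells of a type and less RNA per cell cannot be told apart.

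Across the 10 genes, the 95% interval of the difference between Drp1 KO and WT cells included 0 for each gene except Tefm. At an adjusted p under 0.05, 0 of 10 passed the quasi-likelihood test of edgeR, against 3.36% of the 18506 genes tested (2.29% higher and 1.06% lower in Drp1 KO cells), and DESeq2 and limma-voom also called 0. At an unadjusted p under 0.05, 1 of 10 passed (16.4% of all genes). The study's criteria, a log2 fold change beyond 0.32 in either direction with an unadjusted p under 0.05, were met by Tefm alone, which was higher in Drp1 KO cells. Of all genes tested 12.7% met them, 7.19% higher and 5.48% lower. The 3 libraries of one group were fully above or below those of the other for 0 of 10 genes, against 21.9% of all genes (11.7% above and 10.3% below). Of the 10, 5 had a log2 fold change above 0 and 5 below, with a median of -0.001 and a range of -0.20 to 0.51, and the median of all genes tested was 0.005. Summed over the 10 genes, the level was 137.6, 125.4 and 124.5 CPM in WT and 135.9, 133.1 and 124.7 CPM in Drp1 KO libraries.

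**Figure D1:**
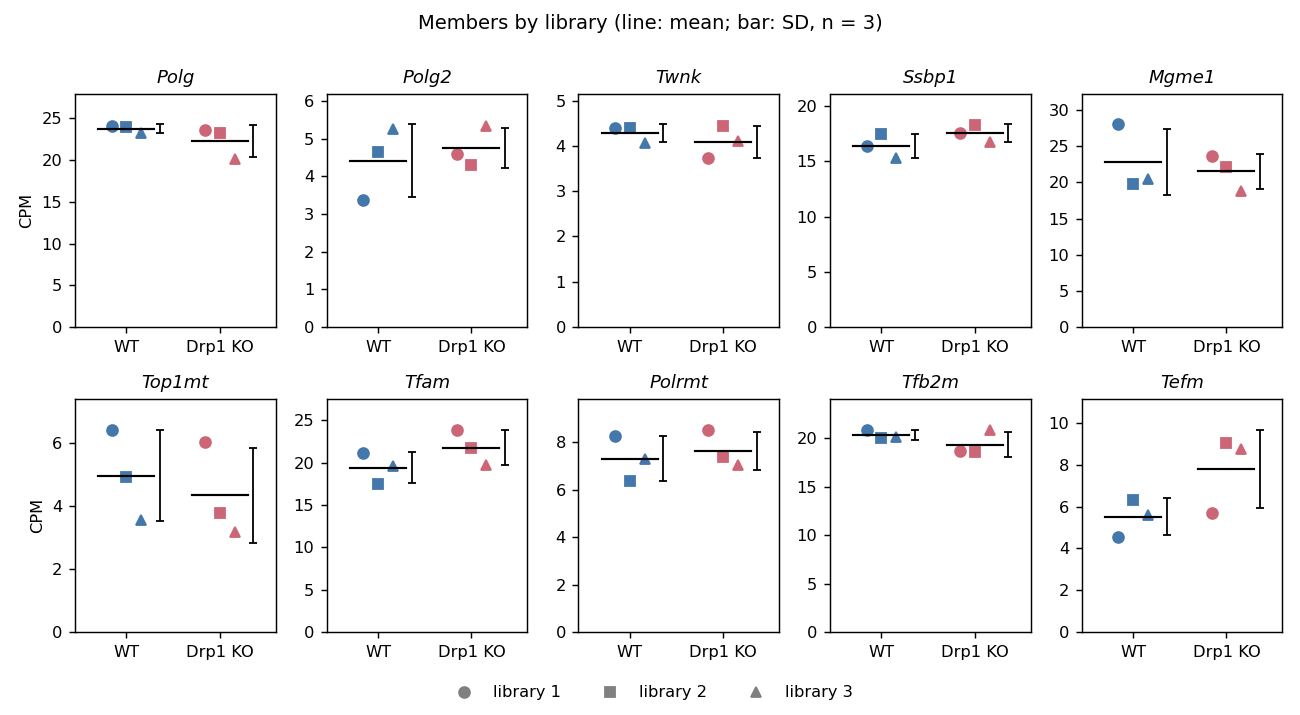
Level of each of the 10 genes in each library, in CPM on a linear axis from 0, with the mean (line) and SD (bar) of 3 libraries per group and the library number as the marker shape. The groups overlap in every panel, and Tefm, at means of 5.51 (WT) and 7.82 CPM (Drp1 KO), has the means farthest apart for their size.

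Among the replication genes, the catalytic subunit Polg (ENSMUSG00000039176, chr7:79095974-79116110, minus strand, GRCm39) had 24.1, 24.0 and 23.2 CPM in WT and 23.6, 23.3 and 20.1 CPM in Drp1 KO libraries. The lowest value was in Drp1 KO library 3, and the other two Drp1 KO libraries lay inside the WT range. The log2 fold change was -0.09 ± 0.108 (SE, n = 3 per group), with a 95% interval of -0.33 to 0.15 (edgeR adjusted p = 0.765). Each Drp1 KO library was below the WT library of its number, by 0.04, 0.05 and 0.21 on the log2 scale. With protein-coding transcripts only, the log2 fold change was -0.26 (edgeR adjusted p = 0.366), and with 1 library left out it ran from -0.14 (library 1 of Drp1 KO) to -0.02 (library 3 of Drp1 KO).

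Polg reads were spread over many annotated transcripts. The full-length coding transcript Polg-201 took 41.5% ± 3.67 (SD, n = 3) of the gene's estimated counts in WT and 36.2% ± 2.47 in Drp1 KO cells. Transcripts annotated for nonsense-mediated decay, which have a stop codon placed so that the RNA is a likely target for degradation, took 28.6%, 29.8% and 32.1% in WT and 37.7%, 38.9% and 35.6% in Drp1 KO libraries. Each Drp1 KO share was above each WT share, as in 10.2% of the 1890 genes that have such transcripts at a 5% share or more (19.7% in either direction). Of these transcripts, Polg-205 and Polg-213 took the largest shares, and the share of each overlapped between the groups. This class was singled out after its values were seen.

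The accessory subunit Polg2 (ENSMUSG00000020718, chr11:106658823-106670384, minus strand), which holds the polymerase on its template, had 3.36, 4.65 and 5.25 CPM in WT and 4.59, 4.31 and 5.34 CPM in Drp1 KO libraries. WT library 1 was the lowest and the other libraries overlapped. The log2 fold change of 0.10 ± 0.204 (95% interval -0.36 to 0.55, edgeR adjusted p = 0.890) turned to -0.06 without WT library 1 and was 0.43 with protein-coding transcripts only (adjusted p = 0.918), a fit that rests on at most 5.96 estimated counts of Polg2 in a library.

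Nearly all Polg2 counts were assigned to transcripts that are not annotated to make the full protein. Transcripts annotated for nonsense-mediated decay took 96.2% ± 1.90 (SD, n = 3) of the gene's counts in WT and 96.0% ± 3.21 in Drp1 KO cells. The largest share was that of Polg2-204, with 53.2%, 61.7% and 68.0% in WT and 56.9%, 60.5% and 67.8% in Drp1 KO libraries, so the Drp1 KO values lay inside the WT range. Polg2-201, which codes for the full protein of 459 codons, was listed at 0, 5.90 and 0 estimated counts in WT and at 3.31, 5.96 and 0 in Drp1 KO libraries. At this depth a listed 0 allows up to 3 counts. One annotated difference between them is the end of exon 1. Polg2-204 and Polg2-206 leave exon 1 at base 106669910 of chromosome 11, and Polg2-201 leaves it at base 106669785, so that 125 bases at the end of the exon are left out of the former. The annotated starts differ too, and exon 1 has 390 bases in Polg2-204 and 580 in Polg2-201. In Polg2-204 the annotated reading frame of 126 codons ends 19 bases into exon 2. The transcripts also differ at their 3′ ends. The junctions are shown because they mark the difference at the end of exon 1. Reads inside the 125 bases also separate Polg2-201 from Polg2-204. In each, lower case marks the last 15 bases of exon 1 and capitals the first 15 bases of exon 2, from the GRCm39 genome and the GENCODE M39 annotation:
Polg2-201: cgactcttcttcacgGTGCCTTGGAGCACT
Polg2-204: ggacagtgccttcagGTGCCTTGGAGCACT

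The exon 2 bases are the same in both, and the exon 1 bases differ. The files hold 6 Polg2 transcripts, and the annotation used here 14.

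The helicase gene Twnk (ENSMUSG00000025209, chr19:44994102-45001204, plus strand), which unwinds mtDNA ahead of the polymerase, had 4.40, 4.39 and 4.05 CPM in WT and 3.72, 4.43 and 4.11 CPM in Drp1 KO libraries. Both the lowest and the highest of the 6 values were in Drp1 KO cells. Its log2 fold change was -0.06 ± 0.170, with a 95% interval of -0.44 to 0.32 (edgeR adjusted p = 0.925), and with 1 library left out it ran from -0.12 (library 2 of Drp1 KO) to -0.01 (library 1 of Drp1 KO). All Twnk counts lay on its 2 coding transcripts, with 57.1% ± 0.816 (SD, n = 3) on Twnk-202 in WT and 58.6% ± 5.40 in Drp1 KO cells.

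Ssbp1 (ENSMUSG00000029911, chr6:40448286-40524298, plus strand), which coats the displaced single strand, had 16.3, 17.5 and 15.3 CPM in WT and 17.6, 18.3 and 16.7 CPM in Drp1 KO libraries. The top value of WT lay between those of Drp1 KO cells. The log2 fold change was 0.10 ± 0.113 (95% interval -0.15 to 0.35, edgeR adjusted p = 0.755). Each Drp1 KO library was above the WT library of the same number, by 0.10, 0.07 and 0.13 on the log2 scale, but a correction for GC content turned the fold change to -0.04, and leaving out library 3 of WT lowered it to 0.04.

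Mgme1 (ENSMUSG00000027424, chr2:144112027-144123149, plus strand) is a nuclease that trims flaps and linear mtDNA, and Top1mt (ENSMUSG00000000934, chr15:75527333-75550660, minus strand) is the mitochondrial type I topoisomerase. Mgme1 had 28.0, 19.8 and 20.4 CPM in WT and 23.6, 22.2 and 18.8 CPM in Drp1 KO libraries. WT library 1 stood above the others, and without it the log2 fold change of -0.08 ± 0.154 (95% interval -0.42 to 0.26, edgeR adjusted p = 0.878) became 0.09. Top1mt had 6.43, 4.91 and 3.54 CPM in WT and 6.04, 3.79 and 3.19 CPM in Drp1 KO libraries. Library 1 was the highest of both groups, and each Drp1 KO library was below the WT library of its number, by 0.09, 0.37 and 0.15 on the log2 scale. The log2 fold change of Top1mt, -0.20 ± 0.282, had the widest 95% interval of the 10 genes, -0.83 to 0.43 (edgeR adjusted p = 0.819), and with the block the interval was -0.53 to 0.12 (adjusted p = 0.458). With 1 library left out it ran from -0.51 (library 1 of Drp1 KO) to 0.02 (library 1 of WT).

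Of the transcription genes, Tfam (ENSMUSG00000003923, chr10:71061287-71074110, minus strand), which bends promoter DNA and packs mtDNA into nucleoids, had 21.1, 17.5 and 19.6 CPM in WT and 23.9, 21.8 and 19.7 CPM in Drp1 KO libraries. Drp1 KO library 3 lay inside the WT range and the other two above it. The log2 fold change was 0.17 ± 0.122, with a 95% interval of -0.11 to 0.44 (edgeR adjusted p = 0.579). It stayed above 0 under all 17 alternatives, from 0.06 to 0.24, and none passed an adjusted p of 0.05. The value was 0.06 with the GC correction, 0.08 without library 2 of WT and 0.09 without library 1 of Drp1 KO.

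Tfam was assigned to 5 transcripts in the files. The full-length coding transcript Tfam-201 took 54.4% ± 1.48 (SD, n = 3) of the counts in WT and 61.3% ± 5.97 in Drp1 KO cells, and the shares overlapped. Per length, Tfam-201 had 3.997, 3.54 and 4.23 length-scaled units (TPM) in WT and 4.47, 5.13 and 4.49 TPM in Drp1 KO libraries, so that the groups did not overlap. Over the 30 transcripts of the 10 genes with a share of at least 5% in a group, the TPM of 4 did not overlap between the groups. Tfam-201 and Polrmt-202 were above in Drp1 KO cells, and Polg-201 and Twnk-202 below. Polrmt-202 was among the 30 only through its share in Drp1 KO cells. The same held for 21.3% of 34089 transcripts of all genes (7.69% above). Polg-201 had 1.49 to 1.70 TPM in WT and 1.21 to 1.30 TPM in Drp1 KO libraries. All Drp1 KO values of Polg-201 were thus below all WT values.

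Polrmt (ENSMUSG00000020329, chr10:79571957-79582420, minus strand) had 8.28, 6.37 and 7.29 CPM in WT and 8.53, 7.36 and 7.02 CPM in Drp1 KO libraries. The groups shared most of their range, and the log2 fold change was 0.06 ± 0.158 (95% interval -0.29 to 0.41, edgeR adjusted p = 0.920). With 1 library left out it ran from -0.05 (library 2 of WT) to 0.15 (library 1 of WT).

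Most Polrmt counts were assigned to 1 transcript in each library. Polrmt-201, the full-length form of 1207 codons, took 98.6%, 86.5% and 93.6% of the gene's counts in WT and 67.2%, 87.7% and 51.8% in Drp1 KO libraries. Polrmt-202, which lacks exon 9, was listed at 0 in all WT libraries and at 37.2, 7.9 and 96.5 estimated counts in Drp1 KO libraries, shares of 19.8%, 3.26% and 42.1%. Polrmt-202 reached a mean share of 5% only in Drp1 KO cells, where it is high, so nothing is read from the lack of overlap. Of 34089 transcripts of all genes with such a share in a group, 18.3% had shares that did not overlap (9.03% above in Drp1 KO cells). Exon 9 has 222 bases (chr10:79575978-79576199) and codes for 74 codons, so the reading frame of Polrmt-202 continues with 1133 codons. Between the pair, only the reads over the joint of exons 8 and 10 are particular to Polrmt-202. Reads inside exon 9 also separate the pair. The joints are shown because they mark the difference, with the last 15 bases of the left exon in lower case and the first 15 of the right exon in capitals:
Polrmt-201 exons 8 and 9: gcgtctgacacccagGTGGCGCCCTGCCTT
Polrmt-201 exons 9 and 10: cgaagctaccgccagGTGGGCATCCTTAAG
Polrmt-202 exons 8 and 10: gcgtctgacacccagGTGGGCATCCTTAAG

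The Polrmt-202 joint joins the left side of the first to the right side of the second. kallisto divides reads that fit several transcripts by estimation, and reads over single joints were not analysed here. The shares have no counting interval, and with 3 libraries a group an exact permutation test cannot go below 0.1. The range among Drp1 KO libraries, from 7.9 to 96.5 counts, was wide.

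**Figure D2:**
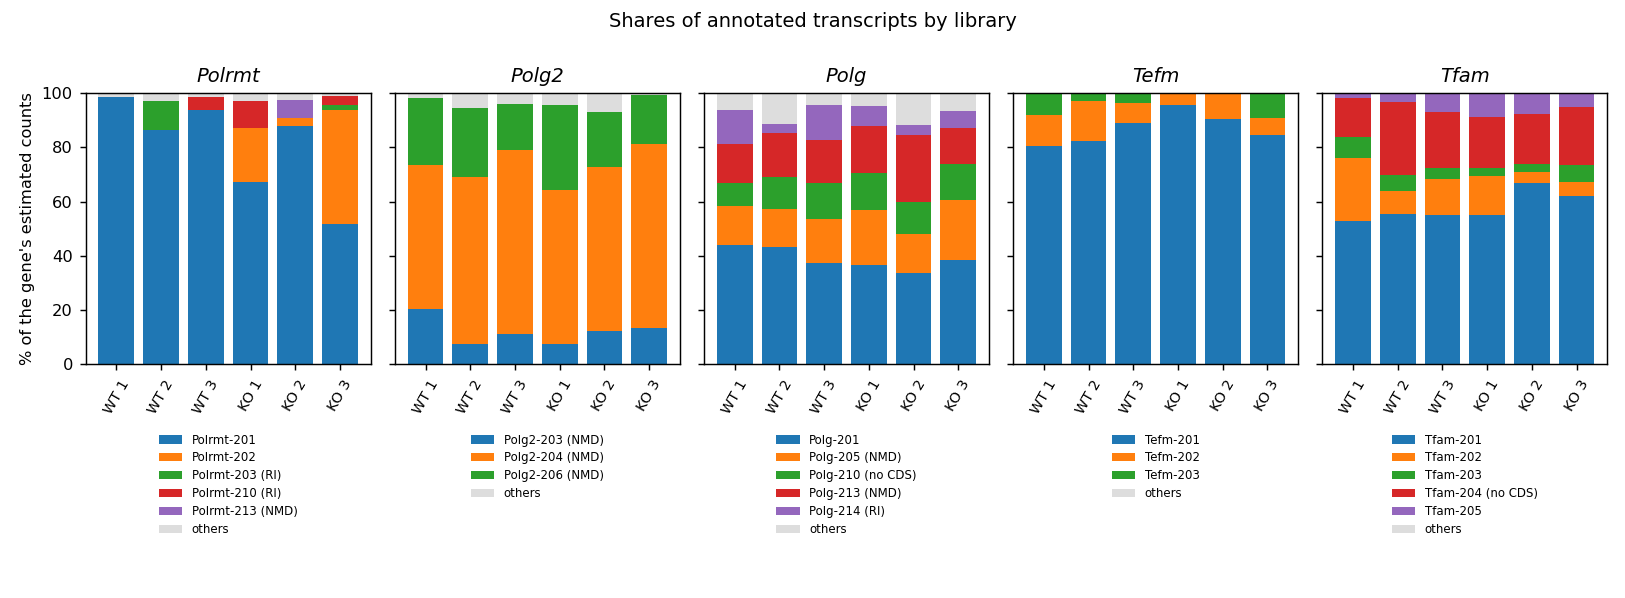
Percent of each gene's estimated counts assigned to each annotated transcript, as stacked bars for the 3 WT and 3 Drp1 KO libraries of Polrmt, Polg2, Polg, Tefm and Tfam (NMD: annotated for nonsense-mediated decay, RI: retained intron, no CDS: no coding sequence defined; transcripts under 5% in every library are pooled as others). Polrmt-202 appears in the Drp1 KO bars only, at 3.26% to 42.1%, and the NMD transcripts of Polg2 fill nearly all of every bar.

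Tfb2m (ENSMUSG00000026492, chr1:179355610-179374548, minus strand), which melts the promoter for Polrmt, had 20.9, 20.02 and 20.1 CPM in WT and 18.7, 18.6 and 20.9 CPM in Drp1 KO libraries. Drp1 KO library 3 lay inside the WT range and the other two below it. The log2 fold change was -0.07 ± 0.107, with one of the narrowest 95% intervals here, -0.31 to 0.17 (edgeR adjusted p = 0.840), and turned to 0.13 with length-scaled counts. With 1 library left out it ran from -0.12 (library 3 of Drp1 KO) to -0.03 (library 2 of Drp1 KO).

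Tefm (ENSMUSG00000046909, chr11:80027498-80033839, minus strand) keeps Polrmt on its template past the point where a replication primer would end. It had 4.57, 6.33 and 5.62 CPM in WT and 5.67, 9.04 and 8.74 CPM in Drp1 KO libraries. Drp1 KO libraries 2 and 3 were above all WT libraries, and Drp1 KO library 1 lay within the WT range. The mean was 5.51 ± 0.887 CPM (SD, n = 3) in WT and 7.82 ± 1.86 CPM in Drp1 KO cells, a fold change of 1.42. On the log2 scale the difference was 0.51 ± 0.209 (SE), with a 95% interval of 0.05 to 0.97, an unadjusted p of 0.0344 and an adjusted p of 0.254 (edgeR, n = 3 per group). An exact two-sided permutation test of its log2 CPM gave p = 0.2, and 0.1 is the smallest value that 3 against 3 libraries can give. The study's criteria were no longer met when library 1 or 3 of WT (log2 fold change 0.39 and 0.51) or library 2 or 3 of Drp1 KO (0.40 and 0.43) was left out, nor with scaling by library size only or with length-scaled counts.

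Both groups carry the library numbers 1 to 3. Deviations from the group means correlated most between the libraries numbered 1 (0.510 over 12248 genes). The libraries numbered 2 and 3 correlated at 0.204 and 0.298, and WT library 2 with Drp1 KO library 3 at 0.326. The numbers 2 and 3 were thus not shown to be pairs. Each Tefm value was higher in Drp1 KO than in the WT library of its number, by 0.31, 0.51 and 0.63 on the log2 scale. With the number as a block in the fit, the log2 fold change of Tefm was 0.50 ± 0.131 (95% interval 0.21 to 0.79) with an edgeR adjusted p of 0.0329. In that fit 1 of the 10 genes passed, against 12.0% of all genes tested (6.73% higher and 5.22% lower in Drp1 KO cells). The other genes had adjusted p-values of 0.323 to 0.869. With the block and a GC correction together, Tefm had 0.45 and an adjusted p of 0.0518.

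**Figure D3:**
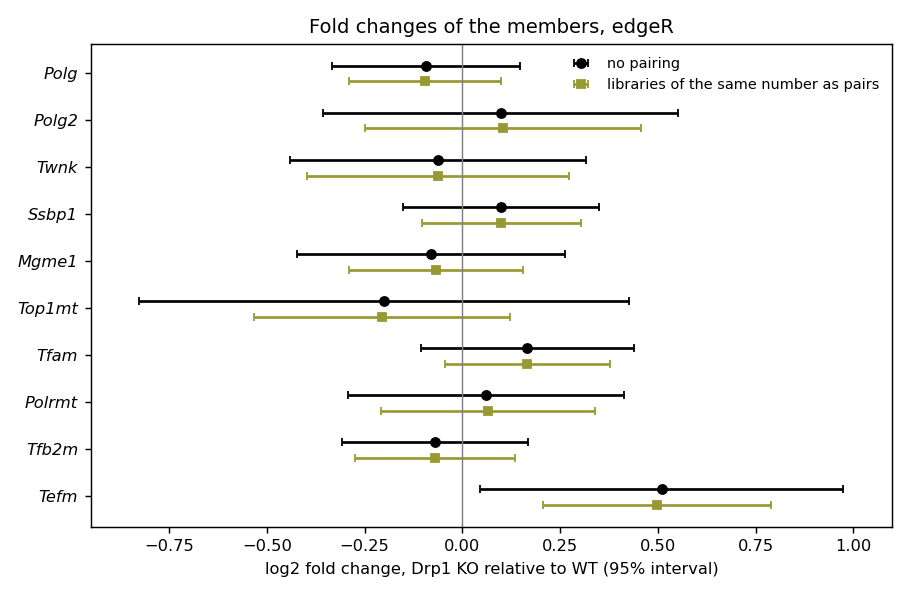
Log2 fold change of each of the 10 genes in Drp1 KO relative to WT cells with its 95% interval from edgeR, without pairing (black circles) and with libraries of the same number as pairs (green squares). Only the intervals of Tefm, 0.05 to 0.97 without and 0.21 to 0.79 with pairing, lie fully above 0, and all others include 0.

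Tefm was assigned mainly to Tefm-201, with 83.9% of its counts in WT and 90.1% in Drp1 KO cells. The files list Tefm-201 with 1309 bases and the annotation used here gives it 2152, so reads in the added end would not have been counted. Among the 5 genes whose log2 CPM followed that of Tefm most closely over the 6 libraries, of 12247 genes compared, were Dnal1 (Pearson r = 0.997), the pseudogene Vamp7-ps (0.993), Med6 (0.992) and Rap1a (0.991). A total of 118 genes had an r above 0.95 over these 6 points, which share depth and library number. The log2 fold changes of these 4 genes were 0.16 to 0.53, and none passed an adjusted p of 0.05.

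For some of the genes library 1 had the same place in both groups. Library 1 was the highest of both groups for 5 of the 10 genes (Tfam, Polg, Polrmt, Mgme1 and Top1mt) and the lowest of both for 1 (Tefm). The same count was not made over all genes, so nothing about these 10 is read from it. The part of this shared order in the fold changes was examined only through the block above.

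Per length, the same order of the 10 genes held in both groups by mean TPM. In WT, Tfam had 36.4 ± 3.71 TPM (SD, n = 3), Ssbp1 28.4 ± 1.47, Tfb2m 17.4 ± 1.92, Polg 14.4 ± 1.63 and Mgme1 13.4 ± 2.40. Tefm had 8.58 ± 1.45 TPM, Top1mt 4.77 ± 0.610, Polg2 3.53 ± 1.11, Polrmt 2.70 ± 0.148 and Twnk 2.23 ± 0.00633. Summed over all transcripts of a gene, the RNA of the packaging factor Tfam was thus the most abundant. By the same sum, the RNAs of the RNA polymerase and the helicase were the least abundant. In WT, the neighbours Polg and Mgme1, Top1mt and Polg2, and Polg2 and Polrmt had overlapping ranges. In Drp1 KO cells, with Tfam at 36.6 ± 4.92 TPM and Twnk at 2.02 ± 0.179, the overlapping neighbours were Polg and Mgme1, Mgme1 and Tefm, and Top1mt and Polg2. Tefm reached 11.0 ± 3.27 TPM there and came within the range of Mgme1. Short transcripts gave much of the level of Tfam and of Polg. Tfam-204, of 596 bases and with no coding sequence defined, gave 17.1 ± 3.82 TPM in WT, and the full-length Tfam-201, of 4167 bases, gave 3.92 ± 0.353. Polg-210, of 724 bases and also with no coding sequence defined, gave 6.81 ± 1.53 TPM in WT, and the full-length Polg-201 gave 1.63 ± 0.114. On protein-coding transcripts alone, the order was not the same. Ssbp1 had 26.21, 25.56 and 23.04 TPM in WT, above Tfam at 22.66, 12.97 and 22.17 TPM. In Drp1 KO library 1 Tfam was above Ssbp1, and in libraries 2 and 3 it was below. Polg2 had 0, 0.22 and 0 TPM in WT. Polrmt had 2.46, 1.67 and 2.21 TPM and Twnk 2.23, 2.24 and 2.22 TPM, all above Polg2.

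**Figure D4:**
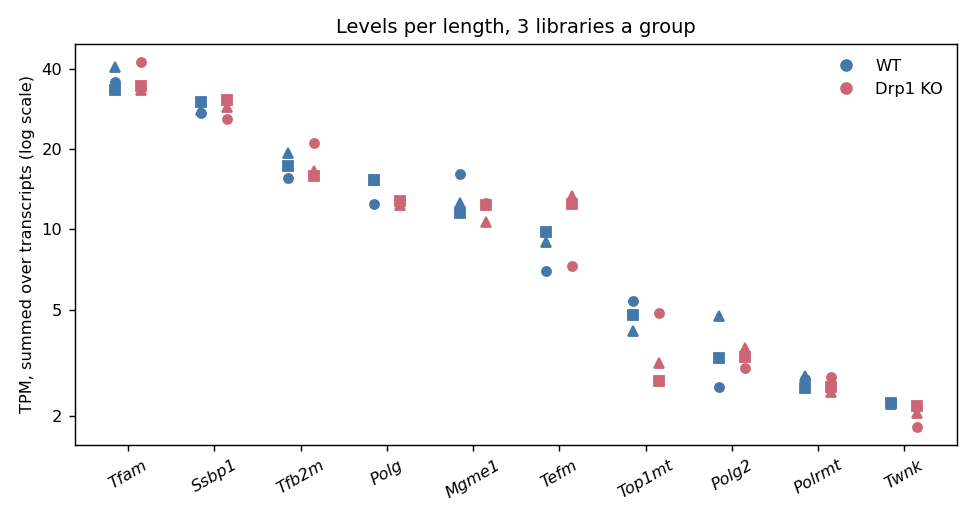
TPM of each gene, summed over its transcripts, on a log axis, with 1 point per library (blue WT, red Drp1 KO; circle, square and triangle for libraries 1, 2 and 3) and the genes in the order of their WT means. Levels run from 36.4 TPM for Tfam to 2.23 TPM for Twnk in WT, and Tefm in Drp1 KO cells reaches the level of Mgme1.

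Some reads could belong to genes on the other strand. Exons of Mgme1 share 589 bases with Snx5, which had 165168 estimated counts over the 6 libraries, and those of Polg2 share 509 bases with Milr1 (18232 counts). Twnk shares 1264 exon bases with Mrpl43 (3665 counts), Tfb2m 531 with Cnst (2247), Polg 1064 with Fanci (688) and Ssbp1 2405 with Or9a7 (138). The labels name a stranded kit, but whether kallisto was run with a strand setting is not given in the sources used here, so the levels of these 6 genes carry that uncertainty.

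Of 63 other genes of mtDNA upkeep and expression, chosen by known roles, 2 passed an adjusted p of 0.05 by edgeR, close to the share among all genes tested (3.36%), and 7 met the study's criteria, 5 higher and 2 lower in Drp1 KO cells (12.7% of all genes). The median log2 fold change was 0.042, with 35 genes above 0 and 28 below, and 18 had groups that did not overlap (21.9% of all genes). DESeq2 called 4 of the 63 (Top3a, Cmpk2, Fastkd2 and Pnpt1) and 1155 of all 18506 genes tested, and limma-voom 2 of the 63 (Top3a and Cmpk2) and 623 of all. Without Drp1 KO library 1, 13 of the 63 and 2771 of 18217 genes tested met the study's criteria.

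Of 9 replication auxiliaries, Top3a, the topoisomerase that unlinks daughter circles after replication, was lower in Drp1 KO cells. It had 25.7, 21.96 and 21.6 CPM in WT and 15.8, 17.1 and 15.7 CPM in Drp1 KO libraries, with no overlap. Its log2 fold change was -0.51 ± 0.116 (edgeR adjusted p = 0.0432, n = 3 per group), and with any 1 library left out the adjusted p was 0.0624 to 0.134 (0.0745 with length-scaled counts). Top2b, a type II topoisomerase, had a log2 fold change of -0.31 (edgeR adjusted p = 0.137, and 0.0384 with the block) and the flap endonuclease Fen1 -0.32 (0.257). With length-scaled counts Top2b had -0.19, with the GC correction -0.44 (adjusted p = 0.0450), and without library 1 of WT Fen1 had -0.21. The list had 4 genes above 0 and 5 below (49.4% of all genes were below), a median of -0.017 and 3 genes whose groups did not overlap (21.9% of all genes).

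Of 15 genes of mitochondrial nucleotide supply, Cmpk2 was higher in Drp1 KO cells. This mitochondrial nucleotide kinase is known as an interferon-stimulated gene that feeds mtDNA synthesis in activated macrophages. It had 21.6, 28.0 and 15.8 CPM in WT and 46.8, 74.5 and 91.5 CPM in Drp1 KO libraries, so that the lowest Drp1 KO library was above the highest WT library. Its log2 fold change was 1.71 ± 0.252 (edgeR adjusted p = 0.00587, n = 3 per group), and it passed under all 17 alternatives. Slc25a36, a pyrimidine nucleotide carrier, had 0.22 (edgeR adjusted p = 0.253, and 0.06 with the GC correction) and Sucla2, a succinyl-CoA ligase subunit, -0.22 (0.355). Sucla2 had -0.14 without library 3 of Drp1 KO and -0.30 with the block and GC correction together (adjusted p = 0.0315). The list had a median of 0.010, with 8 genes above 0 and 7 below (49.4% of all genes were below). In 6 of the 15 the groups did not overlap (21.9% of all genes).

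Of 8 nucleoid proteins 0 passed at an adjusted p of 0.05 by edgeR, with 2 at an unadjusted p under 0.05 and a median of -0.045, and of all genes tested 3.36% and 16.4% passed these thresholds. Fastkd2, an RNA-binding protein of the RNA granule next to nucleoids, had 9.86 ± 0.387 CPM (SD, n = 3) in WT and 14.2 ± 2.28 in Drp1 KO cells, a log2 fold change of 0.52 (edgeR adjusted p = 0.0870, 0.0200 with the block and 0.0350 by DESeq2). With protein-coding transcripts only, the log2 fold change of Fastkd2 was 0.11 (adjusted p = 0.924), and without library 1 of Drp1 KO it was 0.62 (0.0344). The protease Lonp1, which degrades unbound Tfam protein, had 71.3 ± 4.15 CPM in WT and 56.6 ± 10.6 in Drp1 KO cells, a log2 fold change of -0.33 (edgeR adjusted p = 0.249, and 0.0336 with the block), and leaving out library 3 of Drp1 KO gave -0.19 (adjusted p = 0.493), and leaving out library 1 gave -0.46 (0.0831). The helicase Dhx30 had -0.09, and -0.17 to 0.07 over the alternatives.

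Of 7 transcription auxiliaries and terminators 0 passed by edgeR, 0 reached an unadjusted p under 0.05 (16.4% of all genes), and the median was 0.183. Mrpl12, a ribosomal protein that also binds Polrmt, had a log2 fold change of 0.26, Mterf4 had 0.18, and Tfb1m, the methyltransferase related to Tfb2m, had 0.21 (edgeR adjusted p = 0.729). Leaving out library 3 or library 1 of Drp1 KO moved Tfb1m to 0.02 or 0.42, and leaving out library 1 moved Mterf4 to 0.10. Mrpl12 had -0.06 with protein-coding transcripts only.

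Of 16 genes of mitochondrial RNA processing and decay 0 passed by edgeR, with 3 at an unadjusted p under 0.05 (16.4% of all genes tested), 5 below 0 (49.4% of all genes), a median of 0.083 and 6 whose groups did not overlap (21.9% of all genes). Pnpt1, the polynucleotide phosphorylase that degrades mitochondrial RNA, had 33.8 ± 2.58 CPM (SD, n = 3) in WT and 46.9 ± 8.86 in Drp1 KO cells, a log2 fold change of 0.47 (edgeR adjusted p = 0.112, 0.00799 with the block and 0.0460 by DESeq2). Pnpt1 had 0.31 with the GC correction and 0.61 without library 1 of Drp1 KO (adjusted p = 0.0145). Hsd17b10, a subunit of mitochondrial RNase P, had 0.38 (0.116, and 0.0222 with the block). Lrpprc, which stabilizes mitochondrial mRNAs, had -0.20 (0.273).

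Of 8 nuclear regulators of mitochondrial biogenesis 0 passed by edgeR, with 1 at an unadjusted p under 0.05 (16.4% of all genes) and a median of 0.087. Gabpb1, a subunit of NRF-2, had 16.4 ± 2.67 CPM (SD, n = 3) in WT and 21.1 ± 2.13 in Drp1 KO cells (log2 fold change 0.36, edgeR adjusted p = 0.231). Esrra had 0.17 and Ppargc1b 0.24, and without library 3 of WT they had 0.10 and 0.09. Nrf1 and Gabpa, whose products bind promoters of several of the 10 genes, had 0.05 and -0.03, and the coactivator Ppargc1a had means of 0.58 (WT) and 0.56 CPM (Drp1 KO). These 3 genes were added to show their levels after their values were seen.

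With the block, 8 of the 63 genes passed (Top3a, Top2b, Rrm2b, Cmpk2, Lonp1, Fastkd2, Hsd17b10 and Pnpt1), 5 of them higher in Drp1 KO cells, again against 12.0% of all genes.

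**Figure D5:**
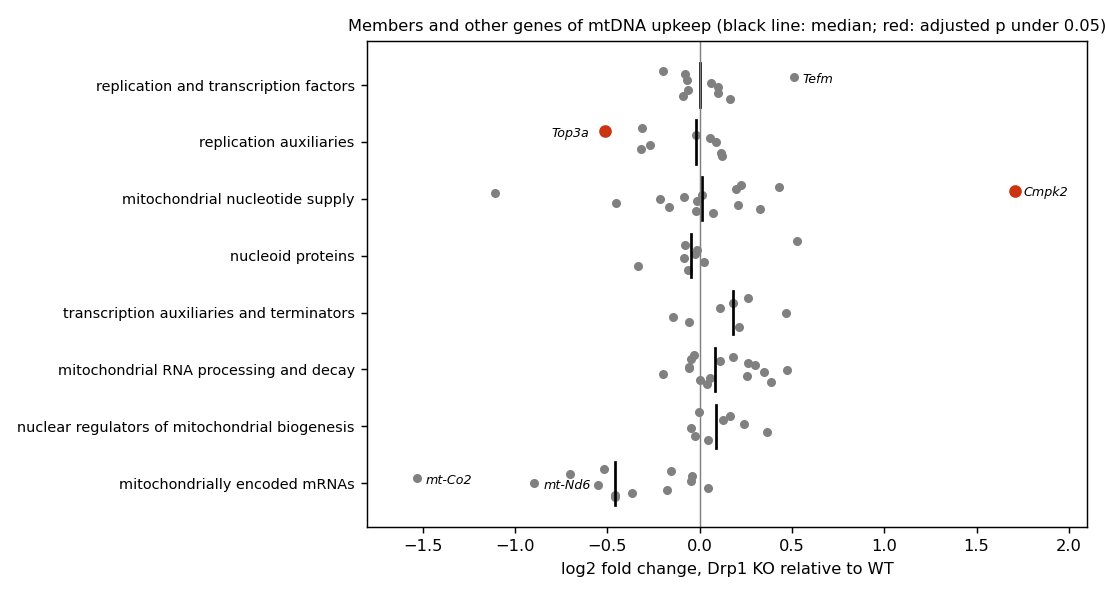
Log2 fold change in Drp1 KO relative to WT cells of each gene, 1 dot per gene, for the 10 replication and transcription factors, the 63 other genes by role and the 13 mitochondrially encoded mRNAs; black lines are medians and red dots have an edgeR adjusted p under 0.05. Cmpk2 (1.71) and Top3a (-0.51) are the red dots, and the median of the mitochondrially encoded mRNAs, -0.46, lies to the left of those of all other lists.

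The mRNAs that Polrmt makes from mtDNA had lower mean values in most cases in Drp1 KO cells, with a wide spread. Of 13 mitochondrially encoded mRNAs, 12 had a log2 fold change below 0 (49.4% of all genes tested), with a median of -0.46. The count and the median depended on single WT libraries. They were 13 and -0.71 without library 1 of WT, 8 and -0.23 without library 2, and 10 and -0.30 without library 3. By edgeR 0 passed an adjusted p of 0.05, 3 had an unadjusted p under 0.05 (16.4% of all genes) and met the study's criteria (12.7% of all genes), namely mt-Nd5, mt-Nd6 and mt-Co2, and DESeq2 called 1, beside 1155 of 18506 genes. mt-Nd6, the only one of the 13 made from the light-strand promoter, had 80.5, 161 and 153 CPM in WT and 70.4, 65.3 and 76.4 CPM in Drp1 KO libraries (log2 fold change -0.90, edgeR adjusted p = 0.0541). mt-Co2 had 97.2, 248 and 227 CPM in WT and 97.0, 67.8 and 33.4 CPM in Drp1 KO libraries (-1.53, edgeR adjusted p = 0.0669). WT library 1 was the lowest WT library in both genes, and no Drp1 KO library was above it. The summed level of the 13 was 3092, 6742 and 5794 CPM in WT and 3613, 4841 and 5303 CPM in Drp1 KO libraries, so the groups overlapped. Without WT library 1, 8 of the 13 passed an adjusted p of 0.05, all lower in Drp1 KO cells, as did 744 of 18230 genes in either direction. Without library 2 or 3 of WT 0 of the 13 passed, and over all genes 181 and 217 did. With the block 3 passed (mt-Nd5, mt-Nd6 and mt-Co2), against 12.0% of all genes. These are levels in poly(A) RNA. The strand setting of kallisto is not given, and the part of reads from the opposite strand in mt-Nd6 was not tested. The copy number of mtDNA was not measured in these files.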

How the data were processed

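Poly(A) RNA-seq libraries of 3 WT and 3 Drp1 KO BMDM cultures were analysed. The authors quantified reads with kallisto 0.46.1 on Ensembl cDNA of GRCm39 and deposited, for each of 116873 transcripts, an estimated count (not scaled between libraries) and a TPM value. DESeq2 1.44.0 is also named in the submitters' processing notes. Transcripts were matched by identifier to GENCODE M39, and 116159 (99.4%) matched 36137 genes. The others held 0.542% to 0.575% of counts. Labels and methods differ on the oxygen level, the L929 medium, the RNA extraction and the library kit, and the labels' oxygen level is given here. The deposited estimated counts were summed per gene and rounded. Genes with 10 or more counts in total were tested with edgeR 4.0.16 in R 4.3.3 (TMM, quasi-likelihood test, no covariate, Benjamini-Hochberg adjustment over 18506 genes). A standard error is the log2 fold change over the root of the F statistic. CPM are scaled by the TMM-adjusted library total, and depth was 23389488 to 32231206 estimated counts. A level of 3 counts, the floor, is 0.0917 to 0.136 CPM and covers counting error only. The deposited TPM values served for levels per length and the length-scaled alternative.

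The members and the gene lists were chosen with earlier results of these data known. Named were all 10 genes, Dnm1l, and of each list the genes with an adjusted p under 0.05 and up to 3 with a mean of at least 1 CPM and the smallest unadjusted p, and for the gene with the smallest p the 5 with the most similar log2 CPM. One of these 5 and the lymphocyte marker list are not reported here. The test was checked on simulated counts with known changes. Over 12248 genes, deviations from the group means correlated at 0.510, 0.204 and 0.298 between libraries of the same number (different numbers: -0.443 to 0.326). Only the value of number 1 was above all those of different numbers. The numbers were taken as pairs, a reading of the data that the study does not state. In a chi-square test of counts, the smallest statistic per degree of freedom among 15 pairs of libraries was 10.4, and none was treated as a duplicate. Alternatives were DESeq2 1.42.0, limma-voom (limma 3.58.1), median-of-ratios scaling, library size only, filterByExpr, no filter beyond 1 count, a replicate block, a GC correction, both together, length-scaled counts, protein-coding transcripts only and each library left out.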

Additional observations from a re-analysis of the deposited data

How the results depend on the processing

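Over the 17 alternatives, Tfam, Polg, Twnk and Tefm kept the sign of their log2 fold change, and the other 6 turned at least once at values near 0. With protein-coding transcripts only, Polg2 had 0.435. With length-scaled counts Polg2 had -0.0029 and Tfb2m 0.129, and Ssbp1 had -0.0413 with the GC correction and -0.0411 with the replicate block and GC correction. With each library left out in turn, Polg2 ran from -0.0624 (WT library 1 out) to 0.231, Polrmt from -0.0459 (WT library 2 out; also below 0 for library 1 of Drp1 KO) to 0.154, Mgme1 from -0.188 to 0.0927 (WT library 1 out; also above 0 for library 3 of Drp1 KO) and Top1mt from -0.512 to 0.0224 (WT library 1 out). Among the other named genes, Dhx30 had 0.067 with length-scaled counts and Mrpl12 -0.0577 with protein-coding transcripts only.

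Of the 10 genes, the replicate block called 1 (Tefm) at an adjusted p under 0.05, and the study's criteria were met by 0 with library size only and with length-scaled counts and by 0 to 1 with a library left out. Of the 63 other genes, DESeq2 called 4, the replicate block 8, the block with GC correction 6, length-scaled counts 1, and fits without a library 1 to 3. Their count by the study's criteria was 5 to 13 with a library left out. Of the 13 mitochondrially encoded mRNAs, DESeq2 called 1, no filter 2, the replicate block 3, the GC correction 1, both together 5, and fits without a library 0 to 8. By the study's criteria DESeq2 gave 5, no filter 7, the block 6, the GC correction 7, both together 7, length-scaled counts 5, and fits without a library 2 to 10. The same criteria were met over all genes by 2173, 2611, 2845, 2337, 2731 and 2530 in these fits in that order (of 24023 tested with no filter, 18546 with length-scaled counts and 18506 in the others) and by 1935 to 2771 without a library. Over all genes, 621 passed in the fit as reported, 1155 by DESeq2, 1065 with no filter, 2212 with the block, 2072 with the block and GC correction, 181 and 217 when library 2 or 3 of WT was left out, and 268 and 348 when library 2 or 3 of Drp1 KO was. The cause of these moves was not tested. The block changed no call on the 10 genes other than that of Tefm.

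With 3 libraries a group and 699 (Twnk) to 3817 (Polg) counts per gene in total, the lowest bound of the 95% intervals is -0.83 (Top1mt) and the highest 0.97 (Tefm) on the log2 scale, and for each gene except Tefm (0.05 to 0.97) the interval included 0. Single libraries were examined by leaving each out in turn.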
